A study of Mus musculus with 6 samples.

Results

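The genes described here are the parts of the ISG15 conjugation system and the sensors of nucleic acid in the cytosol that interferon is known to induce. There are 10 of them, chosen by symbol, out of 43432 genes in the count files: Isg15, Usp18, Ube2l6, Uba7, Herc6, Ddx58, Ifih1, Dhx58, Zbp1 and Rsad2. All 10 were found and all 10 were kept by the filter on low counts, which left 12881 genes. They were read in 6 RNA sequencing libraries of samples labelled mouse skeletal muscle, 3 titled control and 3 titled FID, every title also carrying the tag D3, which the sources used here do not explain. The study's mouse model removes Igf1 from fibro-adipogenic progenitors (FAPs), mesenchymal cells that reside in muscle. The labels give the same handling for both groups: daily tamoxifen (100 ug per g of body weight, 5 days) from 12 to 13 weeks of age, a pause of at least 1 week, and muscle that was embedded and frozen. The sources used here name neither the promoter that drives the deletion nor the alleles of each group, and do not say whether a library is 1 animal. The p-values therefore measure only how far these libraries spread, which may be technical in part.

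ISG15 is a small protein related to ubiquitin that is attached to other proteins by a chain of enzymes. UBA7 activates it, UBE2L6 carries it, HERC6 is the main ligase that attaches it in mouse, and USP18 takes it off again and also dampens signalling at the type I interferon receptor. RIG-I (from Ddx58) and MDA5 (from Ifih1) bind foreign or misplaced double-stranded RNA and relay a signal through MAVS that leads to interferon production, while LGP2 (from Dhx58) tunes them. ZBP1 binds nucleic acid in the Z form and can start cell death, and viperin (from Rsad2) makes a nucleotide analogue that blocks viral polymerases. Interferon is known to raise transcription of all of these genes by way of a promoter element called the interferon-stimulated response element (ISRE).

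Promoter sequences are shown because the members moved together across the libraries and this element is the feature by which such genes are known. RefSeq promoters (GRCm38.p6, 250 bases before to 50 after the start) were given for 7 of the 10 members, and those of Usp18, Dhx58 and Zbp1 were not used here. The letters GAAANNGAA, the core of this element, searched on both strands, stood in 4 of these 7, against 8.56% of all 32851 promoters of the same length of 300 bases. The matches are in capitals in the stretches that follow, each 5′ to 3′ on the strand of its gene.
Isg15: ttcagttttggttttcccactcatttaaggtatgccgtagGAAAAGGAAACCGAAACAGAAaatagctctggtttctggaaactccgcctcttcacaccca
Rsad2: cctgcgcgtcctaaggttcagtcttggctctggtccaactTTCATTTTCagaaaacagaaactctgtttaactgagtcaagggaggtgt
Ddx58: ctgaggcagtTTCGATTTCctatggccag
Ifih1: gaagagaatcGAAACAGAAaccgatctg
The Isg15 stretch (chr4:156200836-156200936, minus strand) holds 3 overlapping matches in a run of 21 bases, from 78 to 58 bases before the start. The Rsad2 stretch (chr12:26456523-26456611, minus strand) holds 1 match in the reverse direction, from 119 to 111 bases before the start. In Ddx58 (chr4:40239804-40239832, minus strand) the match, also in reverse, lies 4 to 12 bases past the start, and in Ifih1 (chr2:62646206-62646233, minus strand) it lies 33 to 41 bases past it. Ifih1 held another match, in reverse, from 112 to 104 bases before the start, which is not printed. The letters AANNGAAA, bound by the wider family of interferon regulatory factors and overlapping the longer motif in all 4 of these genes, stood in 5 of the 7 members, Uba7 being the addition, against 23.9% of all promoters. Ube2l6 and Herc6 held neither in this window. Such matches describe the letters of these windows and do not show that a factor binds there.

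Gene counts per library ran from 5201853 in control 1 to 10093757 in control 3. Igf1, the targeted gene, stood at 60.4 to 134 CPM in control and 81.6 to 109 CPM in FID, so that its whole-gene count gives no check of the labels. Control and FID here mean the libraries so labelled. The 6 myofibre markers together reached at most 50.04 CPM in any library, with muscle creatine kinase (Ckm) at or below 1.19 CPM, although the source is labelled skeletal muscle. The 8 FAP markers together took 40602 to 46008 CPM in control and 20188 to 31186 CPM in FID.

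All 10 members had higher mean levels in the libraries labelled FID, and this came from FID 2 and FID 3. In each of the 10, FID 2 was the highest library, FID 3 the next, and control 2 the lowest. FID 1 lay within the range of the controls for 9 members and just above it for Zbp1. Among all tested genes, FID 2 was the highest library in 19.2%, FID 2 and FID 3 both lay above the other 4 libraries in 16.4%, and control 2 was the lowest in 11.4%. The whole order of FID 2 highest, FID 3 next and control 2 lowest held in 3.44% of all tested genes. Levels are in CPM, the counts brought to an equal library total with edgeR's TMM factors. Each log2 change is the log2 fold change of FID over control from edgeR's quasi-likelihood fit, given with its standard error (SE), and adjusted p-values come from that test with Benjamini-Hochberg adjustment.

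**Figure D1:**
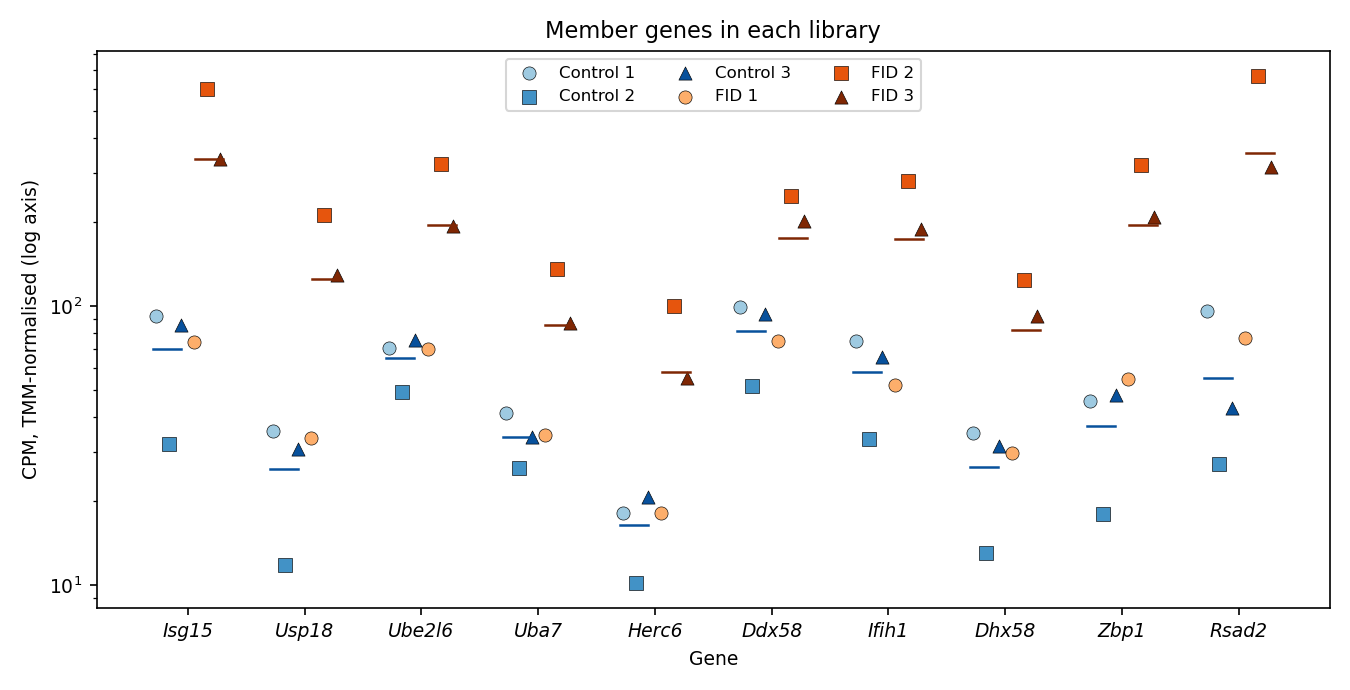
TMM-normalised CPM of the 10 member genes (vertical log axis) in each of the 6 libraries, with horizontal lines at the mean of each group of 3. FID 2 and FID 3 are the 2 highest points of every gene, while FID 1 lies among the controls except for Zbp1, where it stands at 54.7 CPM against at most 48.0 CPM in control.

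The modifier itself, Isg15 (ENSMUSG00000035692, mm10 chromosome 4, 156199424 to 156200818, minus strand), measured 92.0, 31.9 and 85.7 CPM in control 1, 2 and 3 and 74.1, 598 and 337 CPM in FID 1, 2 and 3. FID 2 and FID 3 were 6.50 and 3.66 times the highest control, while FID 1 fell between the controls. The control mean was 69.9 ± 33.01 CPM and the FID mean 336 ± 262 CPM (SD, n = 3 each). On the log2 scale FID was higher by 2.27 (SE 0.72), with an edgeR adjusted p of 0.179. The spread within FID was thus close in size to the difference between the groups.

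Usp18 (chromosome 6, 121245906 to 121270917), the protease that removes ISG15, measured 35.8, 11.9 and 30.8 CPM in control and 33.8, 212 and 129 CPM in FID 1, 2 and 3. Its log2 change was 2.27 (SE 0.67, edgeR adjusted p 0.164). Usp18 and Isg15 kept a near constant proportion: Usp18 CPM divided by Isg15 CPM ran only from 0.355 to 0.456 over the 6 libraries, although Isg15 varied 18.7-fold and Usp18 17.9-fold. FID 1 had the highest and FID 2 the lowest of these ratios.

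The conjugating enzymes were higher in the same libraries by smaller factors. Ube2l6, the carrier enzyme (chromosome 2, 84798828 to 84810335), measured 71.0, 49.2 and 75.8 CPM in control and 69.9, 322 and 193 CPM in FID, with a log2 change of 1.58 (SE 0.49, edgeR adjusted p 0.179). Uba7, the activating enzyme (chromosome 9, 107975505 to 107984060), measured 41.5, 26.4 and 34.0 CPM in control and 34.6, 136 and 86.6 CPM in FID, with 1.34 (SE 0.45, edgeR adjusted p 0.189). Herc6, the ligase (chromosome 6, 57581000 to 57664632), measured 18.2, 10.2 and 20.7 CPM in control and 18.1, 100.3 and 55.3 CPM in FID, with 1.83 (SE 0.58, edgeR adjusted p 0.179). In all 3, FID 1 was within 1.11 times the control mean, and FID 2 was 4.0 to 6.12 times it. Relative to the modifier, the carrier was lowest where Isg15 was highest: Ube2l6 CPM divided by Isg15 CPM was 0.772, 1.54 and 0.884 in control and 0.942, 0.539 and 0.572 in FID. The ratio of activating to carrier enzyme was steadier, from 0.421 to 0.585 over the 6 libraries.

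Among the RNA sensors, Ddx58 had the smallest difference and Ifih1 a larger one. Ddx58 (chromosome 4, 40203773 to 40239828) measured 99.1, 51.6 and 93.7 CPM in control and 75.0, 248 and 202 CPM in FID, with a log2 change of 1.11 (SE 0.44, edgeR adjusted p 0.236). Ifih1 (chromosome 2, 62595798 to 62646255) measured 74.8, 33.5 and 65.5 CPM in control and 52.1, 281 and 189 CPM in FID, with 1.59 (SE 0.58, edgeR adjusted p 0.207). Both stood lower in FID 1 than the control mean, at 0.921 and 0.899 times it, the only members to do so. Ifih1 CPM divided by Ddx58 CPM was 0.648 to 0.754 in the controls and 0.694 in FID 1, against 1.13 in FID 2 and 0.935 in FID 3. The difference between the 2 changes was not tested.

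Dhx58 (chromosome 11, 100694884 to 100704271), which encodes the regulator LGP2, measured 35.0, 13.1 and 31.6 CPM in control and 29.7, 124 and 91.9 CPM in FID. Its log2 change was 1.63 (SE 0.55, edgeR adjusted p 0.190). Dhx58 followed Ifih1 with a ratio of CPM values between 0.391 and 0.571 in all 6 libraries.

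Zbp1 was the single member whose groups did not overlap, against 13% of all tested genes with every FID library above every control. Zbp1 (chromosome 2, 173206612 to 173218923) measured 45.7, 17.9 and 48.0 CPM in control and 54.7, 321 and 209 CPM in FID, with means of 37.2 ± 16.7 and 195 ± 134 CPM (SD, n = 3 each). Its log2 change was 2.39 (SE 0.64) and its edgeR adjusted p of 0.148 was the smallest of the members. The margin by which FID 1 cleared control 3 was 54.7 against 48.0 CPM.

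Rsad2 had the largest change and the widest spread. Rsad2 (chromosome 12, 26442746 to 26456452) measured 95.9, 27.3 and 43.0 CPM in control and 77.0, 665 and 314 CPM in FID, with means of 55.4 ± 36.0 and 352 ± 296 CPM (SD, n = 3 each). FID 2 stood at 12.0 times the control mean and FID 3 at 5.66 times it. The log2 change was 2.68 (SE 0.78, edgeR adjusted p 0.164). It was also the member with the largest span among the controls, control 1 being 3.52 times control 2.

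Members differed in how far they stood above the controls, and FID 2 and FID 3 placed them in a similar order. Relative to the control mean, Rsad2 was highest and Ddx58 lowest in both libraries, at 12.0 and 3.04 times in FID 2 and 5.66 and 2.48 times in FID 3. Rsad2, Zbp1, Isg15 and Usp18 made up the upper 4 in both. The libraries share the control mean in these factors. FID 2 exceeded FID 3 in every member, by 1.22 times for Ddx58 to 2.12 times for Rsad2 with a median of 1.61 times.

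Levels between genes were compared per kilobase of annotated exon. Isg15 was the most abundant member in all 6 libraries, from 42.2 CPM per kb in control 2 to 791 in FID 2, and Ube2l6 was next in all 6, from 24.6 to 162 CPM per kb. Uba7 and Herc6 were the lowest in all 6, with mean levels over the libraries of 8.94 and 4.0 CPM per kb. The other 6 members exchanged places between libraries. Ddx58 ranged from the third place in control 2 to the seventh in FID 2, standing at place 4 in the other controls and at place 6 in FID 1 and FID 3, with levels from 7.32 to 35.1 CPM per kb, and Rsad2 ran from 6.29 to 153 CPM per kb. Of other annotated genes that overlap members, Gm20661 on the strand of Uba7 had 0 counts and Dhx58os, antisense to Dhx58, had at most 12 counts in any library. Gm44148, antisense to Usp18, and Gm45193, on the strand of Herc6, were not analysed here.

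No member passed edgeR's test after Benjamini-Hochberg adjustment over all tested genes (0 of 10, background 0%), with adjusted p from 0.148 to 0.236. All 10 had an unadjusted p under 0.05 in that test with FID higher, against 9.81% of all tested genes, and 4 had a log2 fold change above 2, against 0.668%. The median of their log2 fold changes was 1.73, against -0.02 over all tested genes, and 10 of 10 lay above 0, against 47.8%. DESeq2 called 7 members higher (background 3.89%), the exceptions being Isg15, Ddx58 and Rsad2, with adjusted p of 0.0990, 0.111 and 0.0592. With no filter on low counts edgeR called 2, Zbp1 and Rsad2 (background 1.02%). Limma-voom called 0 members (background 0%), and limma-voom with sample weights called all 10 (background 6.88%). Without FID 1, edgeR called 8 (background 2.15%), all but Ddx58 and Dhx58. The members were named as interferon-induced genes with earlier results of these data known, so these counts are not independent evidence of a direction.

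**Figure D2:**
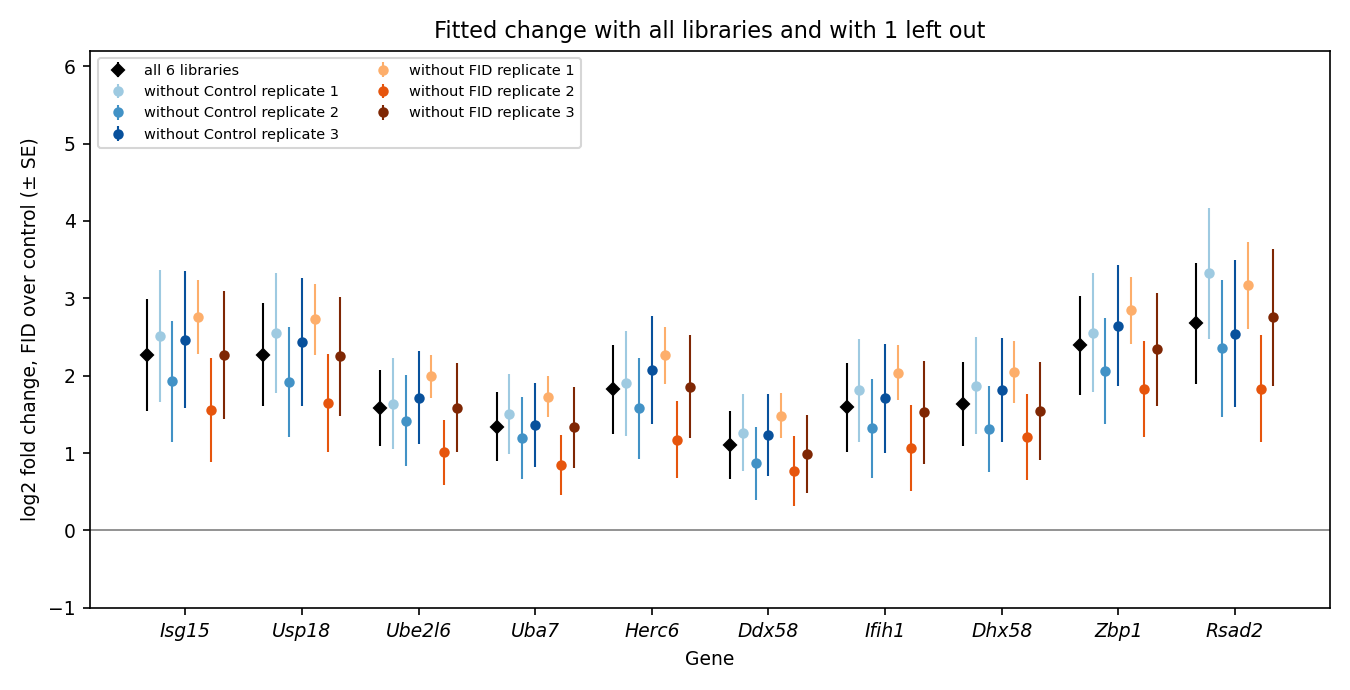
Log2 fold change of FID over control for each member (points) with its SE (bars), fitted on all 6 libraries and with each library left out. Every point lies above 0; the median over the members is 1.73 with all libraries, 1.19 without FID 2 and 2.15 without FID 1.

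The libraries that stood high do not share the sex of the animals. Y-linked Ddx3y had no count in control 1, FID 1 and FID 2 and measured 40.1 to 72.6 CPM in control 2, control 3 and FID 3. Control 3 held both Ddx3y and 13.7 CPM of Xist, the RNA of the inactive X chromosome. Among the libraries without Ddx3y, Isg15 stood at 92.0 CPM in control 1 against 74.1 and 598 CPM in FID 1 and 2. Among those with it, Isg15 stood at 31.9 and 85.7 CPM in control 2 and 3 against 337 CPM in FID 3. With a term for Y-linked transcripts, an alternative chosen after the data were seen, the members' median was 1.69 and edgeR called 0, with adjusted p from 0.0991 to 0.195.

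Relatives of the ISG15 system that serve ubiquitin and other modifiers showed small differences. This list of 26 genes, all tested, had 20 log2 fold changes above 0 and 6 below, between -0.59 and 0.43, with a median of 0.14. The smallest unadjusted p values included those of Herc2, a giant relative of Herc6, at -0.59 (SE 0.18), and the modifier Sumo3 at 0.36 (SE 0.12), with edgeR adjusted p of 0.179 and 0.193. Of 7 partners of ISG15, only Stat2 lay above 1, with 37.0, 18.1 and 34.4 CPM in control and 30.0, 167 and 102 CPM in FID (log2 change 1.75, SE 0.58, edgeR adjusted p 0.185). STAT2 is both an interferon signal carrier and the protein that brings USP18 to the receptor. Trim25, a ubiquitin ligase also known to attach ISG15, had 0.63 (SE 0.29), and Arih1, another such ligase, had -0.20 (SE 0.13). The edgeR test called 0 in both lists. At its unadjusted p under 0.05, 2 relatives were higher and 1 lower, and 1 partner was higher (background for higher 9.81%). DESeq2 called 0 relatives and 1 partner, which was higher (background in either direction 6.3%), and limma-voom 0 of either. Limma-voom with sample weights called 3 relatives, 2 higher and 1 lower, and 1 partner, which was higher. Its background in either direction was 11.9%, so that the count of relatives lies near it.

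In a list of other RNA sensing genes, here called the relay, the picture was mixed. Of 16 relay genes, 11 had a log2 fold change above 0 and 5 below, with a median of 0.31. At an edgeR unadjusted p under 0.05, 5 were higher (background 9.81%) and 2 lower (background not computed). Irf7, the transcription factor that amplifies interferon production, had the largest change of this list at 2.96 (SE 0.81, edgeR adjusted p 0.152), measuring 186, 43.2 and 131 CPM in control and 181, 1561 and 1051 CPM in FID. Rnf125, a ligase that marks RIG-I and MDA5 for degradation, went the other way without overlap, with 46.5, 25.4 and 21.4 CPM in control and 17.6, 12.9 and 13.8 CPM in FID (log2 change -1.06, SE 0.30, edgeR adjusted p 0.162). The share of all tested genes with every FID library below every control was not computed. Zcchc3, a co-sensor, had -1.45 (SE 0.40, edgeR adjusted p 0.157) at no more than 4.55 CPM. Across the relay list edgeR and limma-voom called 0. DESeq2 called 3 (2 higher, 1 lower, background in either direction 6.3%). Limma-voom with sample weights called 7 (5 higher, 2 lower, background in either direction 11.9%).

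Genes of DNA sensing, of the ZBP1 death pathway and of nucleic acid removal had smaller median differences, with a gene below 0 in each list. Of 8 DNA sensing genes, 7 lay above 0 with a median of 0.45. Among them, Pycard, the adaptor of inflammasomes, had 1.08 (SE 0.29), the DNA sensor Aim2 1.23 (SE 0.36) and the endosomal receptor Tlr9 1.78 (SE 0.57), with edgeR adjusted p of 0.148, 0.165 and 0.181. Sting1, the adaptor of cytosolic DNA sensing, had 0.05 (SE 0.20), and the ligase gene Trim56, the one below 0, had -0.43 (SE 0.29). Pycard measured 15.4, 19.4 and 17.6 CPM in control and 22.6, 52.5 and 36.3 CPM in FID, without overlap, as did 13% of all tested genes with FID above. Of 5 partners of ZBP1, 4 lay above 0 with a median of 0.52, but Ripk3, the kinase ZBP1 engages, had 0.12 (SE 0.16) and its relative Ripk1 -0.21 (SE 0.16). Casp8, Fadd and the membrane-rupturing Mlkl had 0.52 (SE 0.14), 0.78 (SE 0.23) and 0.96 (SE 0.39). Of 9 clearance genes 8 were tested and 7 lay above 0, with a median of 0.54. Samhd1, which breaks down nucleotides, had 1.27 (SE 0.36), measuring 220, 156 and 190 CPM in control and 231, 671 and 466 CPM in FID. The lysosomal nuclease gene Dnase2a had 0.80 (SE 0.20) and the mitochondrial RNA nuclease gene Pnpt1 0.92 (SE 0.29). Rnaseh2c, a subunit of RNase H2, had -0.28 (SE 0.16). It was lower in every FID library than in any control, but only just, at 27.5 CPM in FID 1 against 27.9 CPM in control 1. The share of all tested genes with FID so below control was not computed. In these 3 lists edgeR and limma-voom called 0, with 3 genes of each higher at an edgeR unadjusted p under 0.05 (background 9.81%). DESeq2 called 3, 0 and 2, all higher in FID (background 3.89%). Limma-voom with sample weights called 2, 2 and 3, also all higher (background 6.88%).

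Interferon transcripts themselves were at or near 0 counts. Of 21 interferon genes, 17 had no count in any library and the others had so few that no library held more than 2 counts in all. A count of 0 allows up to 3 counts, or 0.293 to 0.593 CPM depending on the library, so low levels would not be detectable at this depth. Genes of interferon receptors and their signal had a median of 0.10 over 12 tested, 7 above and 5 below 0. Socs3, an inhibitor of cytokine signalling, had -0.95 (SE 0.34, edgeR adjusted p 0.204). It was lower in every FID library than in any control, the nearest being 423 CPM in FID 1 and 464 CPM in control 3. The share of all tested genes with FID so below control was not computed. In this list edgeR and limma-voom called 0. At an edgeR unadjusted p under 0.05, 3 genes were higher (background 9.81%) and 1 lower (background not computed). DESeq2 called 2 (background 3.89%) and limma-voom with sample weights 3 (background 6.88%), all of them higher in FID.

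The antiviral effectors of the OAS, MX and PKR group were the most similar list. All 12 were tested and lay above 0, with a median of 2.01 and a range of 0.51 to 3.03. In 5 of these 12 every FID library lay above every control, against 1 of the 10 members and 13% of all tested genes. The difference between the lists was not tested. Mx1, an antiviral GTPase, stood in FID 1 at 11.9 CPM against 5.07 to 8.69 CPM in control. Oas3 and Oas1a, from a cluster of related genes that make the second messenger of RNase L, stood in FID 1 at 43.7 and 56.0 CPM against at most 39.8 and 51.6 CPM in control. The edgeR test called 0 and limma-voom 0 of this list, 11 having an edgeR unadjusted p under 0.05 with FID higher (background 9.81%). DESeq2 called 8 (background 3.89%) and limma-voom with sample weights 7 (background 6.88%), all of them higher in FID.

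**Figure D3:**
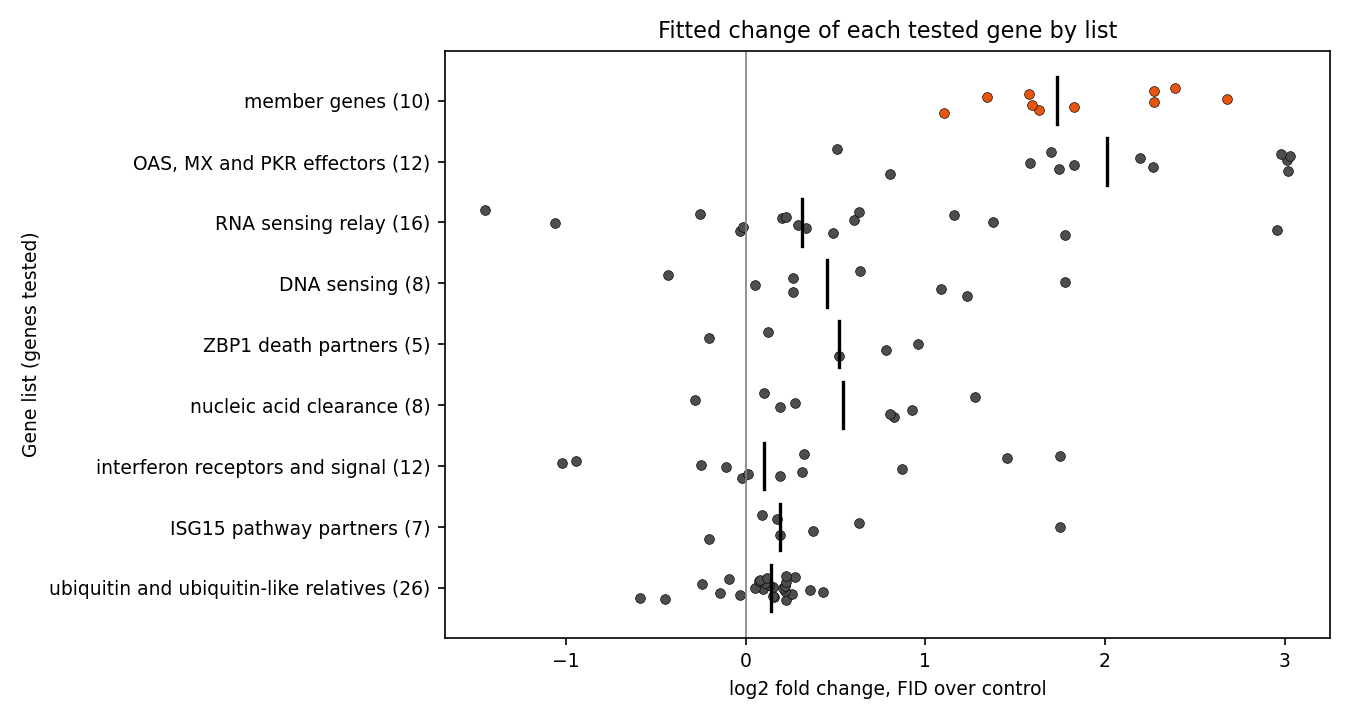
Log2 fold change of FID over control for every tested gene (points) of the member set and of 8 related lists (rows), with the median of each list as a vertical bar. The members lie between 1.11 and 2.68, whereas the 26 relatives that serve ubiquitin and other modifiers lie between -0.59 and 0.43.

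The genes whose pattern over the 6 libraries was most like the mean member profile were Stat2, Ddx60, Trim30a, Gbp3 and H2-Q7. Likeness is the root-mean-square difference between profiles of log2(CPM + 1), each centred on its own mean, which was 0.095 for Stat2 and 0.14 for H2-Q7. The members themselves lay between 0.14 (Herc6) and 0.51 (Rsad2) from their mean. Ddx60, a helicase linked to RNA sensing, measured 17.4, 7.60 and 18.3 CPM in control and 16.5, 82.4 and 48.1 CPM in FID. Of these 5 genes, 4 had the letters GAAANNGAA in at least 1 RefSeq promoter, and H2-Q7 had none in its window. Trim30a and Gbp3 had 2 promoters each, and in Gbp3 only 1 held the letters. The share of 8.56% is counted per promoter, and a share per gene was not computed. H2-Q7 belongs to a family of near-identical copies, so its counts are uncertain.

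Genes next to the members on their chromosomes differed in both directions. The nearest tested protein-coding genes on each side numbered 20, of which 10 lay above and 10 below 0, with a median of 0.01. In edgeR's test 4 had an unadjusted p under 0.05. Of all tested genes 9.81% had such a p with FID higher, and the share in either direction was not computed. The members' order of FID 2 highest, FID 3 next and control 2 lowest held in 3 of the 20, against 3.44% of all tested genes. These were AW011738, Nkiras2 and Cmpk2, and in AW011738 and Cmpk2 FID 1 also lay within the range of the controls. Cmpk2, a mitochondrial nucleotide kinase gene 12.8 kb from Rsad2, measured 37.2, 11.5 and 21.3 CPM in control and 27.6, 231 and 121 CPM in FID (log2 change 2.47, SE 0.74, edgeR adjusted p 0.169). Rsad2 CPM divided by Cmpk2 CPM stayed between 2.02 and 2.87, although Rsad2 varied 24.4-fold and Cmpk2 20.2-fold over the libraries. AW011738, 2.49 kb from Isg15, measured 3.16, 1.22 and 2.44 CPM in control and 1.69, 9.24 and 6.48 CPM in FID (log2 change 1.40, SE 0.63, edgeR adjusted p 0.280). Nkiras2 near Dhx58 had a log2 change of 0.47 (SE 0.14, edgeR adjusted p 0.174). Fap, which encodes fibroblast activation protein and lies 21.7 kb from Ifih1, went the opposite way to its neighbour. It measured 78.1, 80.2 and 87.5 CPM in control and 72.8, 27.3 and 29.9 CPM in FID (log2 change -0.92, SE 0.36, edgeR adjusted p 0.231).

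Summed markers of macrophages and of monocytes also stood higher in each FID library than in any control, though not in the order of the members throughout. The 10 members together took 609, 273 and 529 CPM in control 1, 2 and 3 and 519, 3007 and 1806 CPM in FID 1, 2 and 3. The 10 macrophage markers together took 4737, 4732 and 3067 CPM in control and 8774, 7539 and 6008 CPM in FID. FID 1 thus had the highest macrophage sum and a member sum within the range of the controls. Lyz2, the lysozyme gene, supplied 4302 CPM of the FID 1 sum, and the other 9 markers took 2880, 2448 and 1639 CPM in control and 4473, 5345 and 4288 CPM in FID, so that FID 2 was the highest without it. Of the 10 markers, 5 were highest in FID 2, as all members were, 4 in FID 1 and 1 in control 2. The log2 changes of the 10 markers ran from 0.04 to 2.48, with a median of 0.64. Fcgr1, an Fc receptor gene, had the largest of them and measured 111, 65.6 and 82.1 CPM in control and 189, 739 and 513 CPM in FID. Mrc1 had the smallest and was lowest in FID 2, with 178, 313 and 184 CPM in control and 329, 146 and 220 CPM in FID. The part of macrophages in the members' levels was not tested. In bulk libraries fewer cells of a type and less RNA per cell cannot be told apart.

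The summed level of the 6 monocyte markers moved more nearly with the members, though not every marker did. Together these 6 markers took 253, 199 and 368 CPM in control and 414, 1883 and 1382 CPM in FID. In edgeR's test 5 of the 6 had an unadjusted p under 0.05 with FID higher, against 9.81% of all tested genes. Ly6c2, which has a close relative beside it that may take part of its reads, measured 33.8, 9.63 and 31.0 CPM in control and 54.2, 713 and 552 CPM in FID. Plac8 measured 78.3, 41.3 and 84.8 CPM in control and 81.9, 764 and 460 CPM in FID. Ly6c2 and Plac8 gave most of the sum in FID 2 and FID 3. Ccr2, the chemokine receptor that defines inflammatory monocytes, was higher in all FID libraries, at 123, 176 and 219 CPM against 53.6, 61.3 and 90.0 CPM in control, and Chil3 ran from 75.4 to 146 CPM in control and 92.2 to 128 CPM in FID. Unlike the members, Ccr2 was highest in FID 3 and Chil3 in control 3. The part of monocytes in the members' levels was not tested.

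Markers of other immune cells took far smaller sums than those of macrophages and monocytes, and lymphocyte markers were near 0. The 6 markers of plasmacytoid dendritic cells, which are known as strong makers of interferon, together took 1.32 to 2.97 CPM in control and 2.59 to 5.14 CPM in FID, and none passed the filter on low counts. The 7 markers of T and NK cells together reached at most 2.05 CPM, with Cd3e at 0 in all 6 libraries. The 6 neutrophil markers took 3.96 to 25.0 CPM in control and 15.2 to 20.9 CPM in FID, and S100a8 among them reached 13.2 CPM in control 3. The 6 markers of conventional dendritic cells took 8.59 to 22.5 CPM in control and 10.7 to 13.4 CPM in FID, and the 5 of mast cells 9.86 to 17.4 and 9.07 to 18.2 CPM. By edgeR's unadjusted p under 0.05, no gene of the neutrophil and dendritic lists passed, and 1 of the mast cell list did, Kit, which was lower in FID. Kit was the only mast cell gene that passed the filter on low counts, and the other mast cell genes went the opposite way. Cma1, Mcpt4 and Tpsb2, at no more than 3.88 CPM, read higher in every FID library than in any control, as did 13% of all tested genes. These separations lie near the floor, with at most 3, 4 and 2 counts in a control and at least 5, 6 and 5 in an FID library. A count of 0, as Cma1 had in control 1, allows up to 0.593 CPM there, against 0.563 CPM in FID 1. Cpa3 overlapped between the groups and, like Cma1, Mcpt4 and Tpsb2, was highest in FID 2.

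**Figure D4:**
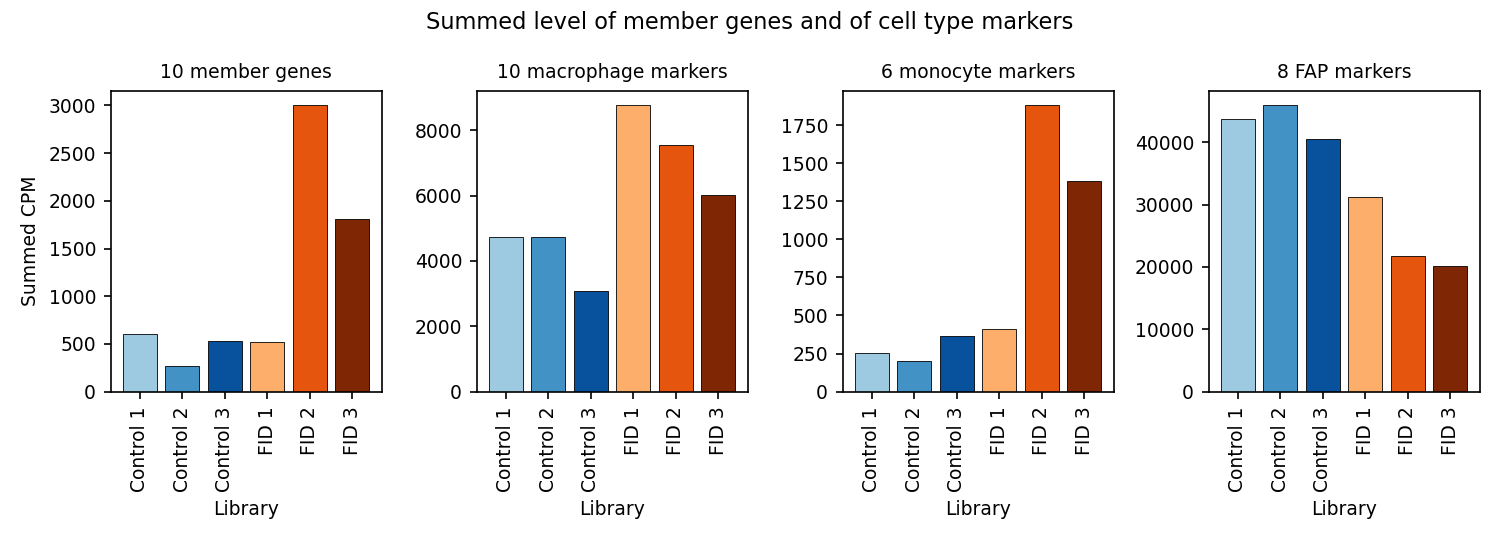
Summed CPM (vertical axes, from 0) of the 10 member genes and of 10 macrophage, 6 monocyte and 8 FAP markers in each library. Member genes and monocyte markers are highest in FID 2 (3007 and 1883 CPM) and next in FID 3, whereas macrophage markers are highest in FID 1 (8774 CPM, of which Lyz2 gives 4302) and FAP markers in control 2 (46008 CPM, nearly all from Col1a1 and Col3a1). Without these genes the highest libraries are FID 2 for macrophage markers (5345 CPM) and control 3 for FAP markers (3282 CPM). Most of the monocyte sum in FID 2 comes from Ly6c2 (713 CPM) and Plac8 (764 CPM).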

How the data were processed

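The files hold raw counts of reads per gene by Ensembl identifier, as deposited by the authors. The submitters' processing notes name mm10 and, with no role or order, Bowtie2 2.5.4, STAR, HTSeq, cutadapt, DESeq2 and SAMtools. Neither the annotation release nor the strand setting of the counting is given, so antisense reads may not be separated. Entries that name no gene, 9.60% to 10.9% of a file, were left out. Of 43432 genes, 42462 were matched to a symbol, and coordinates and exon lengths come from GENCODE vM21 on the same assembly.

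Genes were filtered with filterByExpr (minimum count 10, minimum total 15) and tested in edgeR 4.0.16 by the two-sided quasi-likelihood test, with TMM factors, group as the only term and Benjamini-Hochberg adjustment over 12881 genes at 0.05. Each SE was taken from the fold change (log2) and the square root of its F statistic. The common biological coefficient of variation was 23.1%. The tests were tried on simulated counts in which all genes shared the same dispersion and no library was made to deviate. Such counts do not cover a library that departs from its group, as FID 1 did for the members. Alternatives used DESeq2 1.42.0, limma 3.58.1, other scaling, no filter, a replicate block and each library left out. With 3 against 3, an exact permutation test cannot give a p below 0.1, so none was run. Floors cover counting error only.

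The members and gene lists were chosen with earlier results of these data known. Named genes are all members, up to 3 genes with the smallest p of each related list, the 5 genes of most similar profile, the 3 neighbours with the smallest p, and marker genes. Ripk3, Ripk1, Sting1, Trim56, Rnaseh2c, AW011738 and the level ratios were singled out after their values were seen. A few genes that this rule would name are not reported here.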

Additional observations from a re-analysis of the deposited data

How the results depend on the processing

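All 10 members kept a log2 fold change above 0 under every alternative run, between 0.77 (without FID 2) and 3.32 (without control 1). The number called depended on the test: 0 by edgeR with TMM, with RLE size factors and with library totals only, and 0 by limma-voom, against 2 with no filter on low counts (Zbp1 and Rsad2), 7 by DESeq2 and 10 by limma-voom with sample weights. Over all genes the counts were 0 for the first 4, and 269, 764 and 1531 for the others. With 1 library left out, edgeR called 0 to 8 members and 0 to 359 genes in all, the highest of both without FID 1. Without control 1 it called 3 genes and no member. The members' median ranged from 1.19 without FID 2 to 2.15 without FID 1, and the members whose groups did not overlap from 1 to 10, being 4 without control 1, 2 without control 3 and 10 without FID 1. Groups separate more easily with a library left out, and the shares over all tested genes were not computed for these settings. With all 6 libraries, FID 2 and FID 3 both lay above the other 4 in 16.4% of all tested genes. The causes of these differences between settings were not tested. With the replicate number as a block, edgeR called 0 members and 0 genes, with a median of 1.55. Same-numbered libraries did not deviate together, with correlations of 0.012, -0.30 and 0.32 for numbers 1, 2 and 3, so the numbers were not taken to pair the libraries. Control 1 was the shallowest library, at 5201853 gene counts.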
